A study of Mus musculus with 6 samples.

Results

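The interleukin-1 (IL-1) family genes described here are the ligands Il1a, Il1b, Il18 and Il33, the antagonists Il1rn and Il18bp, and the receptor genes Il1r1, Il1r2, Il1rap and Il1rl1. They were chosen by gene symbol, and 9 of the 10 named genes were found among the 18019 genes of the deposited expression table. Il1r2, which encodes a decoy receptor that binds IL-1 without signalling, was not analysed here. Poly(A) RNA was sequenced from RAW264.7, a mouse macrophage line derived from a tumour induced by Abelson leukaemia virus, and every library came from cells induced with lipopolysaccharide (LPS), a bacterial cell-wall product. The control group (n = 3) received no further treatment, and the other group (n = 3) was treated with TPPU, an inhibitor of soluble epoxide hydrolase, the enzyme that degrades epoxides of arachidonic acid. Doses and times of either agent are not stated, and no library without LPS was analysed, so every level below is one under LPS. The comparison asks, from the title, whether TPPU alters the inflammatory (M1) state of macrophages. Nothing says that libraries of one group were separate cultures, so the p-values reflect only how far these samples spread, possibly for technical reasons.

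IL-1α and IL-1β are agonists that bind the receptor IL1R1, which then recruits the shared co-receptor IL1RAP and signals through MyD88 and IRAK kinases to NF-κB. The receptor antagonist encoded by Il1rn occupies IL1R1 without recruiting the co-receptor and so blocks both agonists. IL-33 signals through ST2, the product of Il1rl1, with the same co-receptor, while IL-18 has a receptor pair of its own and is neutralised in solution by the IL-18 binding protein encoded by Il18bp. LPS is a classical inducer of Il1a, Il1b and Il1rn in macrophages, and IL-1β and IL-18 are made as precursors that caspase-1 cuts in the inflammasome.

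Depth was estimated at 17.8 to 23.0 M (mega) fragments per library, from the steps between low values. All 7 macrophage markers examined were at 18.5 FPKM (fragments per kilobase, corrected for library size) or more in every library, and the LPS-response genes Nos2, Tnf, Acod1 and Ptgs2 at 91.8 FPKM or more. These LPS-response genes summed to 2221 to 2561 FPKM in control and 2036 to 2199 FPKM with TPPU, without overlap. Acod1 was at 434 to 566 FPKM in control and 398 to 424 FPKM with TPPU. Nos2, Tnf and Ptgs2 each overlapped, and Tnf ranged from 176 to 452 FPKM within control. The part of this difference in the results below was not tested. Summed markers of B cells, epithelium and neutrophils stayed at or under 0.395 FPKM in each library. The dendritic cell markers Flt3 and Zbtb46, of which Zbtb46 alone reached 1 FPKM, summed to 0.643 to 0.715 FPKM in control and 0.850 to 1.02 FPKM with TPPU, without overlap, and their part in the results below was not tested. Control replicate 3 stood apart on the first principal component, at 31.4 against -14.0 to 5.02 in the other libraries. Mitochondrial transcripts made up 0.371% of its FPKM, against 0.914% in TPPU replicate 1 and 1.46% to 1.85% in the other 4 libraries. GC content correlated across genes (which are not independent replicates) with its departure from each gene's mean at a Spearman's rho of 0.61. In the other libraries that rho ran from -0.45 (control replicate 2) to 0.24 (TPPU replicate 1). Values without control replicate 3 are given beside the members and the list medians that it moves. The TPPU samples' labels further point to a different table, where their columns carry an sh-LIS1 (LIS1 knockdown) name, which leaves their group less certain. The group was taken from the titles and the design text. Pafah1b1, the gene of LIS1, was at 6.52 to 14.2 FPKM in control and 10.7 to 14.2 FPKM with TPPU.

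Among these genes, Il33 and Il1rn lay lower in every TPPU library than in any control, Il18 lay higher in 2 of the 3, and Il1b and Il1a overlapped between the groups. The mean of Il33 with TPPU was 43.8% of the control mean and that of Il1rn 67.9%, while that of Il18 was 155%. No member passed the test over all genes (limma, Benjamini-Hochberg adjusted p under 0.05), where 0 of 9728 genes tested, 0.0%, were called in either direction. Il33 ranked 5 and Il1rn 38 by p among those 9728 genes. At an unadjusted p under 0.05, Il33 and Il1rn had a negative change, as had 3.7% of all genes tested, and Il18 a positive one, as had 4.19%. The TPPU libraries were all under the controls for 2 of the 8 members tested, Il33 and Il1rn, against 7.88% of all genes tested, and above them for 1, Il1rl1, against 7.48%. The median log2 change of the 8 was 0.10, that of all genes tested 0.020. Without control replicate 3 the median of the 8 turned to -0.097. It was 0.18 and 0.20 without control replicates 1 and 2, and 0.050 without TPPU replicate 1, a set of values added after the data were seen. In bulk RNA, fewer expressing cells and less RNA per cell cannot be told apart.

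**Figure D1:**
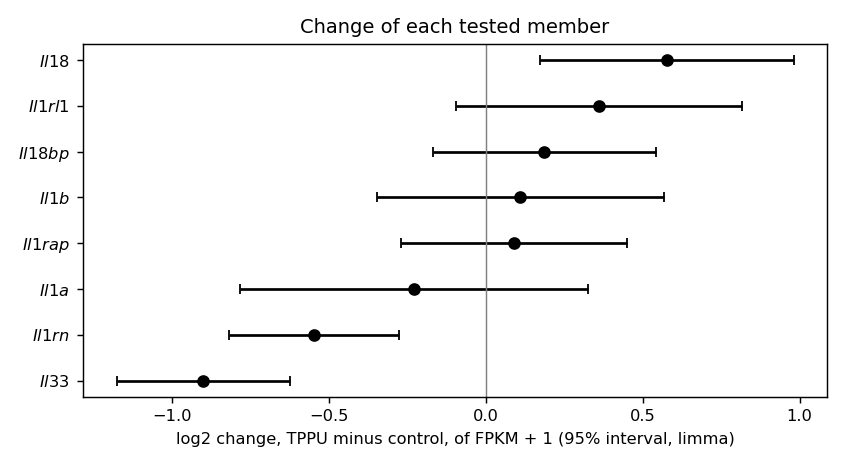
Log2 change of FPKM + 1, TPPU minus control (horizontal axis), of the 8 members tested, with the 95% interval from limma, not adjusted for the number of genes. The intervals of Il33 (-1.18 to -0.62) and Il1rn (-0.82 to -0.28) lie below 0, that of Il18 (0.17 to 0.98) lies above it, and the other 5 span it.

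Il1b, the gene of the secreted agonist IL-1β (chromosome 2, 129364570 to 129371139, minus strand, mm10), measured 50.3, 52.8 and 29.4 FPKM in control replicates 1, 2 and 3. With TPPU it measured 47.3, 45.9 and 45.5 FPKM. The TPPU values sat close together between the lowest control and the other controls, and the low control was the library that stood apart. The log2 change of FPKM + 1 was 0.11 (SE 0.20, 95% interval -0.35 to 0.57, limma adjusted p = 0.891), and it turned to -0.15 (SE 0.069) without control replicate 3.

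Il1a, the neighbouring gene of the cell-associated agonist IL-1α (chromosome 2, 129299610 to 129309972, minus strand), measured 19.4, 19.7 and 10.2 FPKM in control and 10.9, 13.7 and 15.8 FPKM with TPPU. Again control replicate 3 was the lowest of the 6 libraries, and the groups overlapped. Its log2 change was -0.23 (SE 0.24, limma adjusted p = 0.81), or -0.52 (SE 0.14) without that library, where both remaining controls lay above all TPPU values. The exons of Il1a share 222 of 1974 bases with Gm14023, a transcript on the opposite strand. The library kit keeps the strand, but whether counting used it is not stated, so reads of such pairs cannot be told apart. The overlap was smaller for Il1b (25 bases, with Il1bos) and Il18bp (80 bases, with Numa1), and 552 of 11360 bases for Il1rap (with Gm20319).

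Il1rn, the gene of the IL-1 receptor antagonist (chromosome 2, 24336853 to 24351494, plus strand), was the most abundant member by far. It measured 476, 517 and 384 FPKM in control and 297, 303 and 335 FPKM with TPPU. Every TPPU library lay below every control, and the lowest control, replicate 3, was the nearest to them. The means were 459 ± 68.0 FPKM (SD, n = 3) and 312 ± 20.7 FPKM (SD, n = 3), which differed by -0.55 on the log2 scale of FPKM + 1 (SE 0.12, limma adjusted p = 0.394). Without control replicate 3 the change was -0.67 (SE 0.075, limma adjusted p = 0.0678). Il1rn passed the threshold with a GC trend removed (adjusted p = 0.0465) and with sample quality weights (adjusted p = 0.00721), within a range of 0.00721 to 0.908 over all limma alternatives. Over all genes tested, 0 were higher and 1 lower with the GC trend removed, and 89 higher and 80 lower with the weights. Those weights gave control replicate 3 a weight of 0.191 and control replicate 1 one of 3.84. Its GC content of 41.6% was among the lower values of tested genes, whose median was 49.6%. The other members tested ran from 41.3% (Il1a) to 49.7% (Il18bp), with Il33 at 42.5%. The table gives 1 value per gene, so the secreted and the intracellular forms of the antagonist cannot be told apart.

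The antagonist exceeded the agonists in every library. Il1rn stood 9.46, 9.80 and 13.05 times above Il1b in control replicates 1, 2 and 3, and 6.27, 6.61 and 7.36 times above it in TPPU replicates 1, 2 and 3. Against the sum of Il1a and Il1b, Il1rn was 6.83, 7.13 and 9.69 times higher in control and 5.10, 5.09 and 5.47 times higher with TPPU. The margins of the antagonist over Il1b and over that sum were narrower in each TPPU library than in any control. The ratio of Il1b to Il1rn was 1.58-fold higher with TPPU, a log2 difference of 0.66 (SE 0.16, two-sided exact permutation p = 0.1, the smallest that 3 against 3 can give, and 0.25 adjusted over the 5 ratios compared). Without control replicate 3 the log2 difference was 0.52. For Il1a to Il1rn the ratio was 0.0407, 0.0382 and 0.0266 in control and 0.0367, 0.0453 and 0.0470 with TPPU, and the groups overlapped. That log2 difference was 0.31 (SE 0.22, exact permutation p = 0.3, adjusted 0.3), or 0.12 without control replicate 3.

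The sequences upstream of Il1b and Il1rn, the agonist and antagonist whose ratio did not overlap between the groups, are shown for 250 bases before each RefSeq start site (GRCm38.p6, the assembly of mm10), 5′ to 3′ on the gene's strand. Capitals mark matches, on either strand, to the TATA box TATAAA, the AP-1 motif TGANTCA, the C/EBP motif TTNNGNAA, the PU.1 core GAGGAA and the κB consensus of NF-κB. No match overlapped another.
Il1b, chr2:129371140-129371389, minus strand: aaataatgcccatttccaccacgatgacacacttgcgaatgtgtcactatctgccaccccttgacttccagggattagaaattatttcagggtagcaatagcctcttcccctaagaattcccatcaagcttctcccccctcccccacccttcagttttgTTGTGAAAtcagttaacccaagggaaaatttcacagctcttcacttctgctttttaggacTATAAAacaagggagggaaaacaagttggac
Il1rn, upstream start, chr2:24336610-24336859, plus strand: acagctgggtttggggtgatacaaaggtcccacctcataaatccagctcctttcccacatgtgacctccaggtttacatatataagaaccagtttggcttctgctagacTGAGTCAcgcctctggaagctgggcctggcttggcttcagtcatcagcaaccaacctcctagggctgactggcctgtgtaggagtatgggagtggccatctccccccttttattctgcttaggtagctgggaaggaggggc
Il1rn, downstream start, chr2:24345041-24345290, plus strand: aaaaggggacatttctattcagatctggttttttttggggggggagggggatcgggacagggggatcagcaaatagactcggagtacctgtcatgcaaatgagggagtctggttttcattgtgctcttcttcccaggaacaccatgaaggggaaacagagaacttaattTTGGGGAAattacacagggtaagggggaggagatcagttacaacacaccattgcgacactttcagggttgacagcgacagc
The Il1b window held TATAAA from 31 bases before the start and 1 C/EBP match, the upstream Il1rn window 1 AP-1 match, TGAGTCA, from 141 bases before the start, and the downstream Il1rn window 1 C/EBP match. Among 32817 such windows of all genes, 12.4% held the TATA box letters, 6.75% the AP-1 motif, 36.8% the C/EBP motif, 23.3% the PU.1 core and 7.25% the κB consensus. The last pair of motifs had no match in these windows or in those of Il33 shown further on.

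Il33 encodes an alarmin that is held in the nucleus and released from damaged cells (chromosome 19, 29925114 to 29960718, plus strand). Il33 measured 4.74, 4.82 and 4.46 FPKM in control and 1.83, 1.95 and 2.37 FPKM with TPPU. The controls lay within a narrow band that included replicate 3, and the highest TPPU library was well under the lowest control. The means were 4.67 ± 0.19 FPKM and 2.05 ± 0.28 FPKM (SD, n = 3 each), with a log2 change of -0.90 on the FPKM + 1 scale (SE 0.12, 95% interval -1.18 to -0.62). Its limma adjusted p of 0.116 equalled the smallest of any gene tested. With a pseudocount of 0.1 in place of 1, which compresses low values less, the change was -1.16. These levels rest on an estimated 244 to 316 fragments per control library and 96.9 to 146 per TPPU library, over all annotated exons. Leaving out any 1 library kept the log2 change of Il33 between -0.97 and -0.85. Fibroblasts and endothelial cells also express Il33 in tissues. The fibroblast markers Col1a1, Col1a2 and Pdgfra, of which 2 of 3 reached 1 FPKM in any library, summed to 1.43 to 3.88 FPKM in control and 0.727 to 1.48 FPKM with TPPU, and the endothelial markers Pecam1 and Cdh5 to 0.553 to 1.21 and 0.370 to 0.849 FPKM. Their part in the result was not tested. Sample quality weights brought the adjusted p of Il33 to 0.00721, within a range of 0.00721 to 0.675 over its limma alternatives. With those weights 89 of all genes tested were higher and 80 lower.

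**Figure D2:**
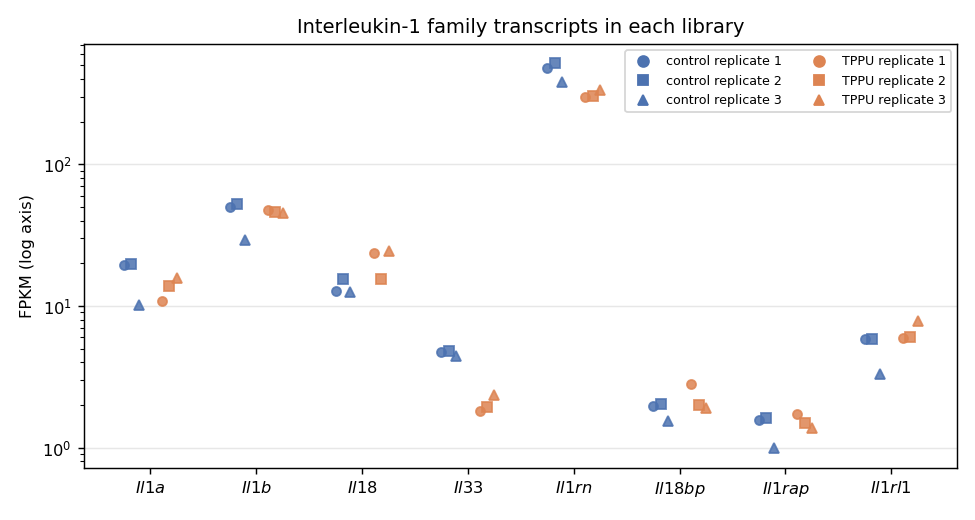
FPKM (log axis) of the 8 members tested in each library, with controls in blue, TPPU in orange and a symbol for each replicate number. The TPPU points of Il33 and Il1rn lie below all their control points, and control replicate 3 (blue triangle) is the lowest control for all 8.

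Il18, Il33 and Il1rn were the members set against Il1b, and the difference in ratio was largest for Il33. The ratio of Il33 to Il1b was 0.0942, 0.0913 and 0.152 in control and 0.0386, 0.0424 and 0.0520 with TPPU. All TPPU libraries lay under all controls, and control replicate 3, where Il1b was low, had the highest ratio. The log2 difference was -1.31 (SE 0.27, two-sided exact permutation p = 0.1, adjusted 0.25), and -1.08 without control replicate 3.

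Upstream of Il33, the member with the smallest p, RefSeq gives a pair of start sites, and the 250 bases before each are shown with the same motifs in capitals.
Il33, upstream start, chr19:29924863-29925112, plus strand: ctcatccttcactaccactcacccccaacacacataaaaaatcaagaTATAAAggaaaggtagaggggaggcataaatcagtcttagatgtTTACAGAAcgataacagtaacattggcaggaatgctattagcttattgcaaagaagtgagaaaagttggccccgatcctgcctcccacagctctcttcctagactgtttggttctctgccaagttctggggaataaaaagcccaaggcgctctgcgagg
Il33, downstream start, chr19:29945540-29945789, plus strand: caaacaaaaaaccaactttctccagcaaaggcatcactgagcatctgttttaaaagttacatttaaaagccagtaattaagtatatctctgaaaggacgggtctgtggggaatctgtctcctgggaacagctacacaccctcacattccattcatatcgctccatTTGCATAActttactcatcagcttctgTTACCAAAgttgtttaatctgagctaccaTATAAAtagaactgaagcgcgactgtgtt
The upstream window held TATAAA from 203 bases before the start and 1 C/EBP match. In the downstream window TATAAA lay 29 bases before the start, beside 2 C/EBP matches. Neither window held the AP-1 letters found before Il1rn, and gene-level values do not show which start was used.

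Il18, the gene of an inflammasome-dependent inducer of interferon-γ (chromosome 9, 50554827 to 50581840, plus strand), measured 12.8, 15.6 and 12.6 FPKM in control. With TPPU it measured 23.8, 15.4 and 24.3 FPKM. TPPU replicates 1 and 3 lay above every control, while replicate 2 lay at the level of the highest control. The log2 change of 0.58 (SE 0.18, limma adjusted p = 0.519) had a 95% interval of 0.17 to 0.98 before adjustment. It was 0.78 without TPPU replicate 2 and 0.53 without control replicate 3. With a trend on transcript length removed it was 0.49.

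The ratio of Il18 to Il1b was 0.254, 0.296 and 0.428 in control and 0.502, 0.336 and 0.534 with TPPU, with overlap between the groups. The log2 difference was 0.50 (SE 0.31, two-sided exact permutation p = 0.2, adjusted 0.25), or 0.71 without control replicate 3. The difference was positive for Il18 to Il1b, with overlap, and negative for Il33 to Il1b, without overlap.

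Il18bp, which encodes the soluble antagonist of IL-18 (chromosome 7, 102014885 to 102018690, minus strand), measured 1.96, 2.04 and 1.54 FPKM in control and 2.83, 2.01 and 1.91 FPKM with TPPU. TPPU replicate 1 was the highest and the groups overlapped, and the log2 change was 0.19 (SE 0.16, limma adjusted p = 0.765). It was 0.063 without TPPU replicate 1 and 0.11 without control replicate 3. Unlike the IL-1 pair, agonist exceeded antagonist here. Il18 stood 6.51, 7.64 and 8.18 times above Il18bp in control and 8.39, 7.66 and 12.7 times above it with TPPU, a log2 difference of 0.33 (SE 0.24, exact permutation p = 0.2, adjusted 0.25), or 0.11 without TPPU replicate 3.

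**Figure D3:**
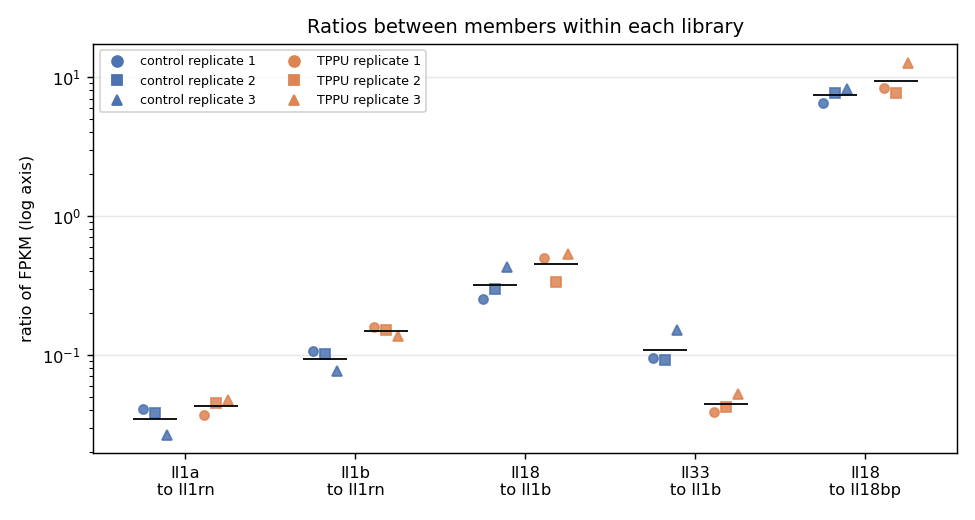
Ratio of FPKM between pairs of members within each library (log axis), with controls in blue, TPPU in orange and bars at the geometric mean of each group. The ratio of Il1b to Il1rn is higher and that of Il33 to Il1b lower in all TPPU libraries than in all controls, and the other 3 ratios overlap.

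Of the receptor genes, Il1rl1 was the most abundant and Il1r1 was near the limit of detection. Il1rl1, the gene of the IL-33 receptor ST2 (chromosome 1, 40429570 to 40465415, plus strand), measured 5.85, 5.86 and 3.30 FPKM in control and 5.92, 6.01 and 7.81 FPKM with TPPU. All TPPU values lay above all controls, but the nearest pair, 5.86 and 5.92, almost met. The log2 change was 0.36 (SE 0.20, limma adjusted p = 0.667), and 0.14 without control replicate 3. Membrane-bound and soluble ST2 come from the same gene and share its value.

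The co-receptor gene Il1rap (chromosome 16, 26581704 to 26730117, plus strand) measured 1.58, 1.62 and 0.986 FPKM in control and 1.72, 1.49 and 1.38 FPKM with TPPU. The groups overlapped, and the log2 change of 0.089 (SE 0.16, limma adjusted p = 0.887) turned to -0.041 without control replicate 3 and to -0.010 with a GC trend removed. Il1r1, the signalling receptor of IL-1 itself (chromosome 1, 40225080 to 40317257, plus strand), was at 0.0444 and 0.0698 FPKM in control replicates 1 and 2 and listed at 0 in replicate 3. With TPPU it was at 0.0345, 0.117 and 0.0740 FPKM, and the groups overlapped (two-sided exact permutation p = 0.4). These values correspond to about 4.04 to 17.1 fragments in the libraries above 0, and a count of 0 in control replicate 3 allows up to 0.0248 FPKM (3 fragments, counting error alone). Il1r1 did not pass the filter of at least 1 FPKM in at least 3 libraries, and no fold change is given.

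In control the members ranked by mean FPKM as Il1rn, Il1b, Il1a, Il18, Il1rl1, Il33, Il18bp, Il1rap and Il1r1. With TPPU the order was Il1rn, Il1b, Il18, Il1a, Il1rl1, Il18bp, Il33, Il1rap and Il1r1. Ranges of neighbours overlapped in control for Il1a and Il18, for Il1rl1 and Il33, and for Il18bp and Il1rap, and with TPPU for Il18 and Il1a and for Il18bp and Il33. In control, Il33 (4.46 to 4.82 FPKM) lay within the range of its receptor gene Il1rl1 only through control replicate 3, where Il1rl1 was at 3.30 FPKM. In control replicates 1 and 2 Il1rl1 was at 5.85 and 5.86 FPKM, above every Il33 value, and with TPPU the pair lay apart. The control overlaps of Il1a with Il18 and of Il18bp with Il1rap also came through control replicate 3 alone, at 10.2 FPKM for Il1a and 1.54 FPKM for Il18bp. Over all genes of the table, Il1rn ranked between 51 and 70 by level in the controls and between 91 and 105 with TPPU. Il1b ranked 1546 in control replicate 3 and between 773 and 932 in the other libraries.

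**Figure D4:**
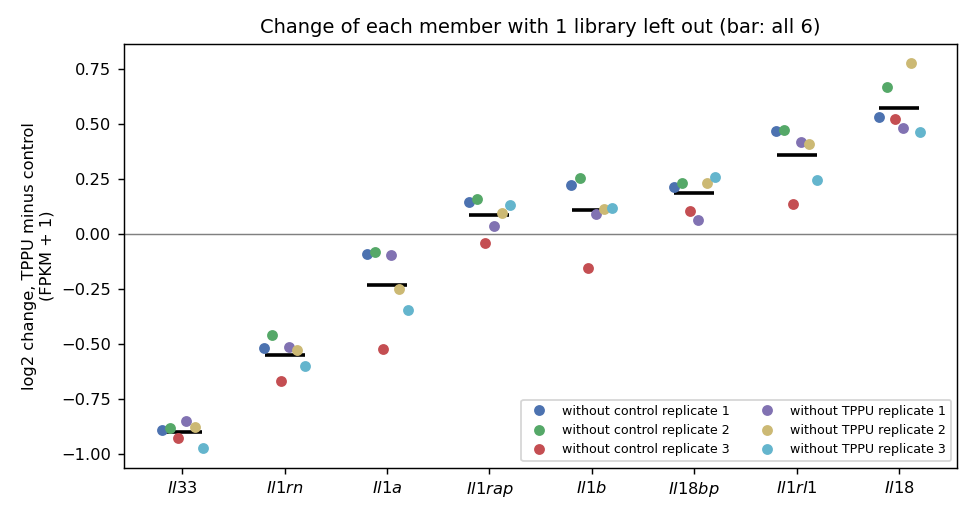
Log2 change of FPKM + 1, TPPU minus control, of each member with all 6 libraries (bar) and with 1 library left out (points, coloured by the library). Without control replicate 3 (red) Il1b and Il1rap move below 0 and Il1a moves to -0.52, while Il33 stays between -0.97 and -0.85 throughout.

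The genes whose profiles over the 6 libraries were closest to a member's differed between Il1b, Il1rn and Il18. Closest to Il1b were Map2k4, Fbxo33 and Gm17017, with root mean square differences of 0.043 to 0.053 on the centred log2 scale, and like Il1b each had its lowest value in control replicate 3. Closest to Il1rn were the chemokine receptor gene Cxcr4, Dennd11 and the zinc-finger gene Klf6 (0.089 to 0.10). Cxcr4 measured 3.28, 3.17 and 2.49 FPKM in control and 1.64, 1.33 and 1.82 FPKM with TPPU. Closest to Il18 were the ribosomal protein genes Rps28 and Rps21 and the complex III assembly gene Uqcc2 (0.097 to 0.11). Rps28 measured 13.1, 14.9 and 11.8 FPKM in control and 20.6, 12.8 and 23.9 FPKM with TPPU, high in the same TPPU libraries as Il18. These are descriptions over 6 libraries that share treatment and library quality.

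Among the other genes of the pathway, no list had a member called over all genes tested with limma (0 higher and 0 lower in each list, 0.0% of all genes). Of 15 symbols of further family ligands and receptors, 6 were in the table and 4 were tested, with a median log2 change of -0.17, 2 positive and 2 negative. Il36g, which encodes the agonist IL-36γ, measured 3.50, 6.09 and 2.95 FPKM in control and 2.47, 1.68 and 2.89 FPKM with TPPU. All its TPPU values lay below all controls (log2 change -0.60, SE 0.23, limma adjusted p = 0.589), with 2.89 and 2.95 nearly touching. Il36a, the gene of IL-36α, measured 8.61 ± 2.85 and 6.06 ± 0.65 FPKM (SD, n = 3 each), with overlap. Il18rap, which encodes the accessory chain of the IL-18 receptor, measured 6.98 ± 1.49 and 8.46 ± 0.84 FPKM, whereas Il18r1, the gene of the ligand-binding chain and named after its values were seen, was at or under 0.0546 FPKM in every library. Sigirr, the gene of an inhibitory receptor of the family, measured 2.57 ± 0.76 and 2.66 ± 0.36 FPKM.

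For processing and release of the cytokines, 15 of 16 genes were tested, 9 with a positive and 6 with a negative change (median 0.060). None had groups that did not overlap, against 7.48% of all genes tested with TPPU above control and 7.88% with TPPU below. The median turned to -0.038 without control replicate 3, -0.023 without TPPU replicate 1 and -0.011 without control replicate 1, and was 0.021 without TPPU replicate 3 and 0.024 without control replicate 2. The 4 with the smallest p were Capn1, Gsdme, Nek7 and Capn2. Capn1, which encodes a calpain, the protease family that cuts pro-IL-1α, measured 13.3 ± 2.78 FPKM in control and 10.3 ± 1.29 FPKM with TPPU (change -0.32 on the log2 scale, SE 0.16, limma adjusted p = 0.639). Gsdme, which encodes a pore-forming gasdermin, measured 2.41 ± 0.18 and 1.95 ± 0.30 FPKM. Nek7, whose product binds NLRP3, measured 7.56 ± 1.76 and 8.83 ± 1.25 FPKM. Capn2 measured 7.08 ± 0.46 and 6.41 ± 0.62 FPKM. Casp1, the gene of the protease that matures IL-1β and IL-18, was named after its values were seen and varied widely. It was at 1.77 FPKM in control replicate 3 and 3.76 FPKM in TPPU replicate 1, where mitochondrial transcripts also had their lowest shares, and at 9.03 to 15.2 FPKM in the others. Pycard, the gene of the adaptor ASC that joins NLRP3 to caspase-1, likewise named after its values were seen, was listed at 0 in all controls and TPPU replicate 1 and at 0.0231 and 0.0496 FPKM in TPPU replicates 2 and 3. Nlrp3 itself, named on the same footing, measured 14.5 ± 2.89 and 14.5 ± 2.69 FPKM.

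For signalling from the receptors, 16 of 19 genes were tested, 8 with a positive and 8 with a negative change (median -0.010, which was -0.087 without control replicate 3, -0.041 without TPPU replicate 3 and 0.039 without control replicate 1). All TPPU libraries were under the controls for 3 of the 16, against 7.88% of all genes. Peli1, which encodes a ubiquitin ligase that acts on IRAK1, measured 16.9, 18.4 and 13.1 FPKM in control and 13.1, 12.8 and 12.8 FPKM with TPPU (change -0.29 on the log2 scale, SE 0.13, limma adjusted p = 0.627). Its nearest pair, 13.10 in control replicate 3 and 13.09 in TPPU replicate 1, almost met. Irak2, which encodes a kinase-like protein that sustains the signal, measured 58.7 ± 6.14 and 50.6 ± 1.27 FPKM (log2 change -0.21, SE 0.098). Tollip, which encodes an inhibitor that binds IRAK1, measured 35.6 ± 2.89 and 31.3 ± 0.55 FPKM (log2 change -0.18, SE 0.094). Irak1 had a positive change, at 13.7 ± 0.89 and 15.6 ± 1.38 FPKM with overlap. The adaptor gene Myd88, named after its values were seen, measured 20.7 ± 3.87 and 21.1 ± 2.55 FPKM.

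**Figure D5:**
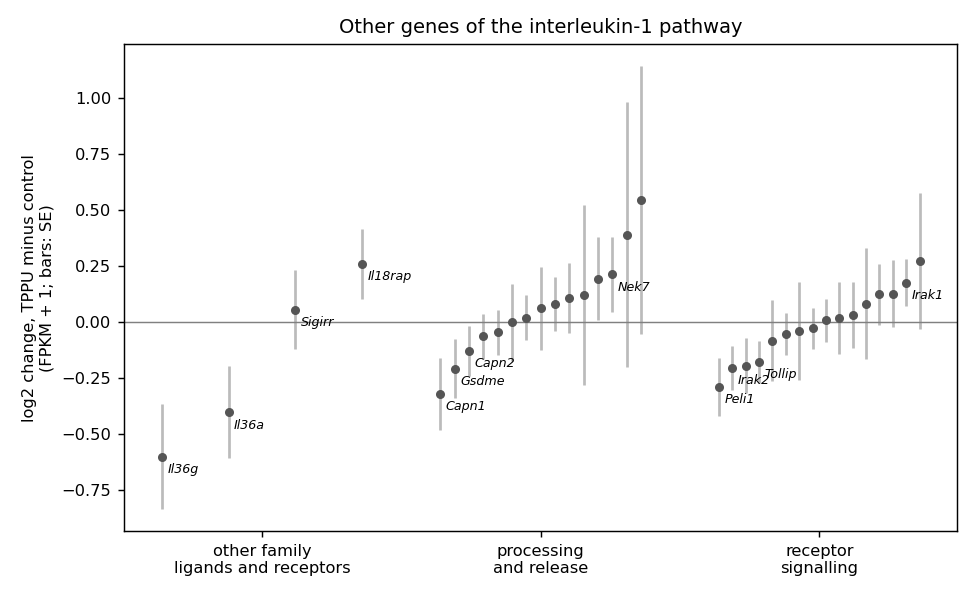
Log2 change of FPKM + 1, TPPU minus control, of the tested genes in 3 lists of other IL-1 pathway genes, ordered by change within each list, with bars for the SE from limma and names for the 4 smallest p of each list. Il36g has the most negative change, at -0.60, and none of the genes passed the threshold over all genes.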

How the data were processed

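The authors deposited 1 table of FPKM per gene symbol for the 6 libraries, the unit being taken from the table's name and values. Per the submitters' processing notes the build was mm10. No aligner, counter, annotation or filter is stated. Per the labels' protocols, mRNA was enriched by its poly(A) tail and the libraries keep the strand. Each column was assigned to the sample whose label gives its library name, and a further table that the labels cite was not used here.

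The test covered the 9728 of 18019 genes that reached 1 FPKM in 3 or more libraries, on log2(FPKM + 1), which understates changes of low genes, with limma 3.58.1 (R 4.3.3), a mean-variance trend, group as the sole term and Benjamini-Hochberg adjustment at 0.05. Ratios between members used FPKM within a library and two-sided exact permutation tests. Depth came from genes with 1 annotated transcript, in which 93.0% to 93.4% of low values were whole fragments within 0.1, against 20% by chance. Fragments of a member were estimated from the length of all its exons in GENCODE M21 (same build). Floors cover counting error only. The intervals of the changes came from limma and reflect the spread between libraries.

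Named genes were the members, the 4 smallest p of each of 3 pathway lists, and the 3 profiles closest to Il1b, Il1rn and Il18. Il18r1, Casp1, Pycard, Nlrp3 and Myd88 were named after their values were seen. The members, lists and tests were chosen with earlier results of these data known. Alternatives covered the pseudocount, filter, scaling, variance model, sample weights, a replicate block, GC and length trends (loess, span 0.3) and each library left out. The fit was tested on simulated data with known answers, with independent noise and no outlying library. It recovered 38.8% of genes changed 1.5-fold, 83.6% of those changed 2-fold and 97% of those changed 4-fold, with 5 false calls. These folds were set on FPKM + 1, where a low gene needs a larger fold in FPKM to reach the same change. Python 3.11.15 was used with scipy 1.17.1 for permutation tests and pandas 2.3.3 for tables.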

Additional observations from a re-analysis of the deposited data

How the results depend on the processing

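Il33, Il1rn, Il1a, Il18, Il18bp and Il1rl1 kept the direction of their change in every alternative that gave a value, and so did the 5 ratios. Il1b turned to -0.11 with sample quality weights and to -0.15 without control replicate 3. Il1rap turned to -0.033 with those weights, -0.041 without control replicate 3 and -0.010 with the GC trend removed. Il33 (-0.92) and Il1rn (-0.62) passed the threshold with sample quality weights, and Il1rn (-0.65) with the GC trend removed. The cause of these shifts was not tested. Over all genes, 89 were higher and 80 lower with the weights, 0 and 1 (Il1rn) with the GC trend removed, and between 0 and 5 higher and 0 and 1 lower when 1 library was left out, the 5 and 1 being without TPPU replicate 1. Among signalling genes 1, Peli1, was called with the weights (limma adjusted p = 0.0451). With limma 768 genes had an unadjusted p under 0.05, against 444 and 449 without TPPU replicates 3 and 2, 504 under the stricter filter (mean FPKM of 5 or more), 1216 with the GC trend removed, 1232 with no filter, 1910 with the weights and 513 to 1071 in the others. The median of the 8 members, added after the data were seen, was -0.070 with the weights, 0.019 with the GC trend removed and 0.063 with the length trend removed. That of the further ligands and receptors was 0.017 with no filter.

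The labels give no pairing by replicate number. Deviations of same-numbered libraries correlated at -0.30, 0.15 and -0.40, and those of control replicate 3 and TPPU replicate 1 at 0.51. With control replicate 3 standing apart, these correlations cannot decide whether samples were paired. With the replicate number as a block, 0 genes were higher and 0 lower and no call changed. The limma adjusted p of Il33 was then 0.488 and that of Il1rn 0.801. Without 1 library, changes ranged from -0.97 to -0.85 for Il33, -0.67 to -0.46 for Il1rn, -0.52 to -0.079 for Il1a, 0.47 to 0.78 for Il18, 0.14 to 0.47 for Il1rl1, and 0.063 to 0.26 for Il18bp, and Il1b and Il1rap reached 0.26 and 0.16. A mean of at least 5 FPKM left out Il33, Il18bp and Il1rap. Depth limits Il1r1 above all, at 17.1 fragments or fewer per library.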
